A study of Homo sapiens with 24 samples.

Results

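This comparison sets messenger RNA of a HEK293 line labelled as overexpressing ZC3H7B (ZC3H7B-OE) beside that of its control line at the end of a 24 h pulse, before the chase had run. It uses 6 of the 24 libraries of the series, the 3 of ZC3H7B-OE and the 3 of control that the labels place at 0 h of chase. HEK293 is an immortal line from human embryonic kidney, much used to express introduced genes. The protein named in that label carries a Flag/HA tag, and the control cells are labelled as the Flag/HA control. All 6 libraries came from cells that had received 100 µM 4-thiouridine (s4U) together with 1 µg/mL doxycycline for 24 h, and the label of each also names the uridine chase (10 mM), at 0 h. The series went on to 2, 4 and 6 h of that chase, with 3 libraries per line at each time, and used poly(A) RNA throughout (SLAM-seq, in which alkylated s4U reads as C and marks RNA made during the pulse). Values below are reads of all kinds per gene unless labelled reads are named.

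ZC3H7B and its paralog ZC3H7A are RNA-binding proteins with several CCCH zinc fingers. ZC3H7B was first described as a partner of a rotavirus protein that takes over the translation machinery, and the series asks how codons enter the regulation of translation and mRNA stability by the 2 proteins. Synonymous codons differ mostly in their last base, so the share of G or C at the third base of codons (GC3) sums up much of a gene's codon choice, and in human cells codon content is tied to how long an mRNA lasts. Cells without doxycycline were not analysed here, and whether each line is 1 clone is not given in the sources used here. Differences that the lines had before induction therefore cannot be told apart from differences that follow ZC3H7B. In bulk RNA a gene's lower level in fewer cells and in every cell cannot be told apart either.

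Of the 6 libraries, 5 resembled each other and control replicate 3 stood apart. It held 1502068 reads, against 1661392 to 2053311 in the other 5, and 11032 genes with a read, against 12005 to 12230. Its 10 most abundant entries took 10.7% of its reads, against 7.20% to 7.61% in the others. Its log2 CPM correlated with those of control replicates 1 and 2 at 0.899 and 0.895 across genes, where those 2 correlated at 0.974 with each other. limma gave it a weight of 0.141, against 1.16 to 1.81. Results below are therefore given with all 6 libraries and, for many of them, without control replicate 3. Of 13 HEK293 and embryonic kidney markers in the table, 11 had a read, with NEFM and DLK1 at 0, and their summed level was 913 to 987 CPM in ZC3H7B-OE and 792 to 937 CPM in control. Markers of other cell types were summed too. Epithelial ones, 5 of 8 with a read and CDH1, KRT5 and KRT14 at 0, were at 189 to 287 CPM in ZC3H7B-OE and 240 to 668 CPM in control. Neuronal ones, 10 of 12 with a read and STMN2 and ELAVL4 at 0, were at 188 to 229 CPM in ZC3H7B-OE and 105 to 177 CPM in control. Endothelial ones, 2 of 5 with a read and VWF, CDH5 and TEK at 0, were at 4.45 to 18.5 CPM in ZC3H7B-OE and 0 to 3.73 CPM in control. Fibroblast ones, 3 of 8 with a read and COL1A2 among those at 0, were at 5.57 CPM or less in both lines. The neuronal and endothelial sums thus did not overlap between the lines, and the part of these markers in the results was not tested.

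The level of ZC3H7B itself differed by less than 2-fold and did not pass the test at 0 h. ZC3H7B had 442, 451 and 395 CPM (counts per 1000000 reads, scaled by TMM) in ZC3H7B-OE, against 338, 352 and 175 CPM in control. The 2 groups did not overlap, and control replicate 3 was the lowest library. The log2 difference was 0.57 (SE 0.27, adjusted p = 0.175, edgeR's quasi-likelihood test with Benjamini-Hochberg adjustment), so it did not pass the threshold of 0.05 with all 6 libraries. It was 0.32 without control replicate 3 (SE 0.10, edgeR adjusted p = 0.0122). In the separate libraries of the later times ZC3H7B averaged 339 CPM in ZC3H7B-OE and 361 CPM in control at 2 h (log2 difference -0.09, edgeR adjusted p = 0.687). The averages were 296 CPM in ZC3H7B-OE and 229 CPM in control at 4 h (0.37, edgeR adjusted p = 0.00437), and 262 CPM in ZC3H7B-OE and 205 CPM in control at 6 h (0.35, edgeR adjusted p = 0.00226). The table counts reads per gene and does not separate a construct from the gene in the genome.

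ZC3H7A had 28.3, 16.0 and 21.2 CPM in ZC3H7B-OE, against 34.4, 35.7 and 24.3 CPM in control. The groups overlapped in 1 control library, replicate 3. The log2 difference was -0.54 (SE 0.30, edgeR adjusted p = 0.238), and without control replicate 3 it was -0.70 (SE 0.28, edgeR adjusted p = 0.0433). Corrected for GC3, with all 6 libraries, it was 0.12 (edgeR adjusted p = 0.857). At 2, 4 and 6 h it was -0.12, 0.26 and -0.30, with edgeR adjusted p of 0.769, 0.190 and 0.0800. Of 32 CCCH zinc finger genes tested, the family both belong to, 1 was lower (MBNL3, a splicing regulator named after its value was seen, at -1.43). The list median was 0.09, but -0.12 without control replicate 3, where 1 gene was higher and 6 of 35 lower. Of all entries, 8.25% were lower with all 6 libraries, and 11.4% were higher and 16.1% lower without control replicate 3. Once GC of the 3′ UTR was corrected for as well, 5 of the 35 were higher and 2 lower (8.09% and 9.01% of all entries).

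**Figure D1:**
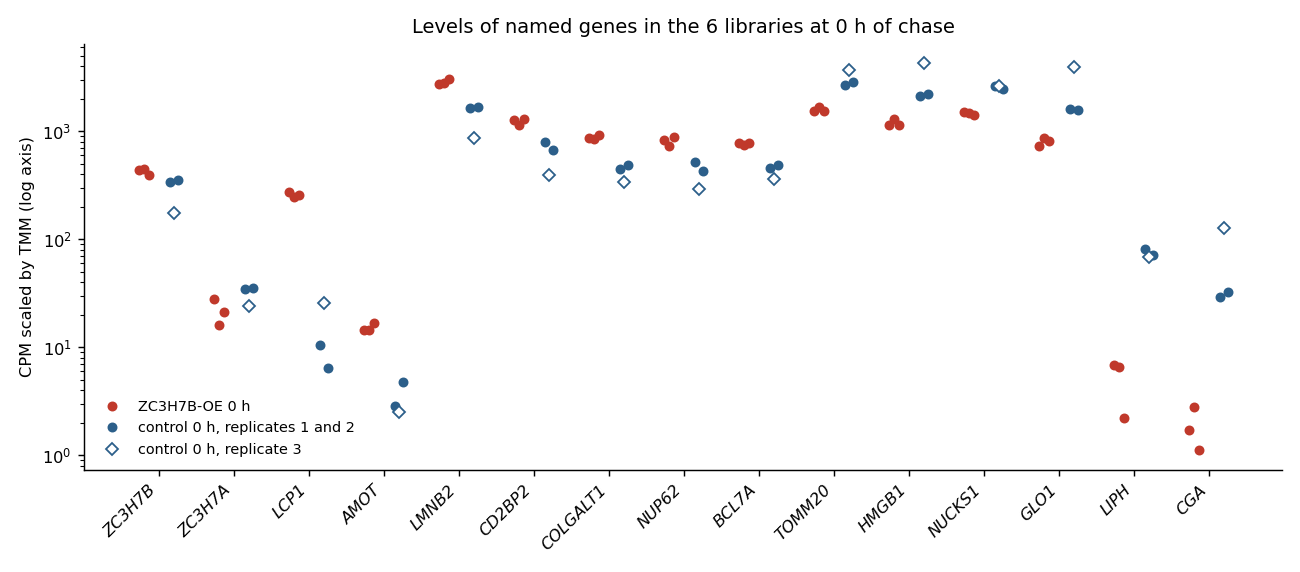
Level of named genes in each of the 6 libraries at 0 h, as CPM scaled by TMM on a log axis; red points are ZC3H7B-OE, blue points control replicates 1 and 2, and the open diamond control replicate 3. LCP1 lies between 246 and 272 CPM in ZC3H7B-OE and at 25.9 CPM or less in control, and in LMNB2, HMGB1 and GLO1 the diamond lies farther from ZC3H7B-OE than the other control libraries do.

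Far more genes were lower in ZC3H7B-OE than higher. Of 8170 entries tested, 117 were higher and 674 lower in ZC3H7B-OE (1.43% and 8.25%, together 9.68%), with edgeR adjusted p between 0.0112 and 0.0499. In all 791 the 2 groups did not overlap, which was also true of 20.6% (higher) and 22.6% (lower) of all entries tested. A lack of overlap given below for a called gene thus adds nothing to its call. The median log2 difference was 1.11 over the higher genes and -1.39 over the lower ones, and 83 and 560 of them differed at least 2-fold. Over all entries tested the median was -0.04. Without control replicate 3, 974 of 8559 entries were higher and 1382 lower (11.4% and 16.1%, together 27.5%), all 791 genes were called again in the same direction, and their medians were 0.94 and -1.16. That fit reuses the other libraries of 0 h, so it is no independent support. When any 1 ZC3H7B-OE library was left out instead, edgeR called 0 entries, with 1652 to 2001 at an unadjusted p under 0.05. Leaving out control replicate 1 gave 55 higher and 558 lower. No source says that the replicates were separate cultures, so the p-values reflect spread between libraries that may be technical.

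The gene with the highest difference was LCP1, which encodes the actin-bundling protein L-plastin of blood cells. It had 272, 246 and 259 CPM in ZC3H7B-OE, against 10.5, 6.39 and 25.9 CPM in control. Every ZC3H7B-OE library was thus far above every control library, by a log2 difference of 4.26 (SE 0.42, edgeR adjusted p = 0.0112), and at 2, 4 and 6 h the difference was 4.29, 4.07 and 4.90. Of 10 leukocyte markers 5 had a read, with PTPRC, TYROBP, CD3E and CD14 among those at 0, and their sum was 109 to 128 CPM in ZC3H7B-OE and 84.9 to 250 CPM in control. AMOT, which encodes the junction protein angiomotin that binds YAP in the Hippo pathway, had 14.4, 14.6 and 16.7 CPM in ZC3H7B-OE and 2.86, 4.79 and 2.51 CPM in control. Its log2 difference of 2.12 (SE 0.40, edgeR adjusted p = 0.0169) also passed at 2, 4 and 6 h, at 1.77, 2.80 and 2.37.

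The other 8 of the 10 highest differences were low in both lines. They were NLRP9, RASGRP4, RFX2, TMC6, LILRA6, COL4A4, DYNC1H1 and DAZAP1, with mean levels between 9.47 and 21.1 CPM in ZC3H7B-OE and between 1.81 and 3.75 CPM in control, and log2 differences between 1.92 and 2.69. RASGRP4 encodes an activator of Ras in mast cells, LILRA6 a leukocyte receptor of the immunoglobulin family, RFX2 a transcription factor of cilia genes, COL4A4 a chain of basement membrane collagen and DYNC1H1 the heavy chain of cytoplasmic dynein. Of these 8, DAZAP1, an RNA-binding protein gene, passed at 4 h and 6 h (log2 differences 1.73 and 1.32) and DYNC1H1 at 6 h (1.84). NLRP9, RASGRP4, RFX2, TMC6, LILRA6 and COL4A4 passed at no later time at which they were tested.

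Among the lowest genes several were almost absent from ZC3H7B-OE. ZNF502, a zinc finger gene, had 1, 0 and 0 reads in ZC3H7B-OE, against 70, 41 and 14 reads in control. With the libraries of each line pooled and their sizes scaled by TMM, this was 137-fold lower in ZC3H7B-OE (exact 95% interval 24.1 to 5443). Such intervals cover counting error only. AMN1 had 1, 0 and 0 reads in ZC3H7B-OE and 12, 11 and 27 reads in control, 54.7-fold lower (exact 95% interval 9.38 to 2203). TENM1, which encodes a teneurin, a transmembrane protein of cell contacts, had 0, 4 and 0 reads in ZC3H7B-OE and 63, 60 and 22 reads in control. No library of one line reached any library of the other in these 3 genes, which the rule that named them required. AMN1, tested at 4 h among the later times, did not pass there (log2 difference -0.80, edgeR adjusted p = 0.248).

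LIPH, a lipase gene, had 6.93, 6.59 and 2.23 CPM in ZC3H7B-OE, against 80.6, 71.4 and 68.6 CPM in control, a log2 difference of -3.78 (SE 0.36, edgeR adjusted p = 0.0112). CGA, the alpha subunit shared by the pituitary and placental glycoprotein hormones, had 1.73, 2.82 and 1.11 CPM in ZC3H7B-OE, against 29.1, 32.5 and 126 CPM in control. Its log2 difference was -4.94 (SE 0.74, edgeR adjusted p = 0.0112) and -3.95 without control replicate 3, the highest control library. ZNF502, LIPH, CGA and SPARC, a secreted matrix protein gene, were called lower at 2, 4 and 6 h too, with log2 differences of -3.39 or below at each, and so was TENM1, which had no read in ZC3H7B-OE at 4 h and 6 h. ZDHHC20, a palmitoyltransferase gene, was also called at each later time, at -1.35 to -1.87. SLC46A3, CACNB4 and COMMD8 completed the 10 lowest, at -3.50, -2.99 and -2.93, and passed at fewer of the later times. COMMD8 was at -1.86 without control replicate 3.

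The 5 most abundant genes higher in ZC3H7B-OE were LMNB2 (lamin B2 of the nuclear lamina), CD2BP2 (a splicing-associated protein), COLGALT1 (a galactosyltransferase that modifies collagen), NUP62 (a nuclear pore protein) and BCL7A (a subunit of SWI/SNF remodelling complexes). Among the most abundant genes lower in ZC3H7B-OE were TOMM20 (the receptor of the mitochondrial import pore), HMGB1 (a chromatin protein), NUCKS1 (a nuclear DNA-binding protein) and GLO1 (glyoxalase, which removes methylglyoxal). The first 150 coding bases of 1 gene of each kind show the difference in base composition taken up further on. They come from the GENCODE 29 annotation of GRCh38 (COLGALT1 on chromosome 19, NUCKS1 on chromosome 1), read 5′ to 3′ on the coding strand, with G or C at the third base of each codon in capitals.
COLGALT1: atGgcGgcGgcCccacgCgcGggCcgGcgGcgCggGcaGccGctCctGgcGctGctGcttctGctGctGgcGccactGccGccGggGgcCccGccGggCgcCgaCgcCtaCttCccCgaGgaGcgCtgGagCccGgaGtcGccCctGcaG
NUCKS1: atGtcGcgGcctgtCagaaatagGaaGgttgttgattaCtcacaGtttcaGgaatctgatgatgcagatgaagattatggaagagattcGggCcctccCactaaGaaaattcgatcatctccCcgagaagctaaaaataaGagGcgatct
Of these 50 codons, 47 end in G or C in COLGALT1 and 16 in NUCKS1. Over the whole coding sequence GC3 is 83.6% in COLGALT1 and 38.7% in NUCKS1.

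LMNB2 had 2720, 2790 and 3034 CPM in ZC3H7B-OE, against 1634, 1678 and 857 CPM in control. COLGALT1 had 859, 856 and 926 CPM in ZC3H7B-OE, against 445, 490 and 336 CPM in control. In both, all ZC3H7B-OE libraries lay above all control libraries and control replicate 3 was the lowest, with log2 differences of 1.03 (SE 0.26, edgeR adjusted p = 0.0411) and 1.05 (SE 0.20, edgeR adjusted p = 0.0169). CD2BP2, NUP62 and BCL7A were higher by 0.99, 0.97 and 0.82. The 5 differences were 0.70 to 0.91 without control replicate 3, and all 5 genes were called higher again at 2, 4 and 6 h.

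NUCKS1 had 1506, 1465 and 1418 CPM in ZC3H7B-OE, against 2602, 2452 and 2613 CPM in control. All ZC3H7B-OE libraries lay below all control libraries, and the log2 difference was -0.81 (SE 0.17, edgeR adjusted p = 0.0229). GLO1 had 725, 860 and 805 CPM in ZC3H7B-OE, against 1622, 1567 and 3909 CPM in control. There control replicate 3 was far above the other 2 control libraries, and the log2 difference was -1.57 with all libraries and -1.002 without replicate 3. TOMM20 and HMGB1 had log2 differences of -0.95 and -1.26, and all 4 genes were called lower again at 2, 4 and 6 h.

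The differences ran with base composition across the genome. Of the 8170 entries tested, 7676 had a coding sequence in GENCODE 29 and 7476 a 3′ UTR of at least 50 bases. In 5 equal bins of genes ordered by GC3 (lowest bin 22.3% to 42.4%, highest 76.3% to 100.0%), the median log2 difference was -0.76, -0.42, -0.02, 0.28 and 0.42. Genes lower in ZC3H7B-OE numbered 347, 199, 78, 17 and 13 in these bins, and genes higher 1, 8, 11, 38 and 54. Median GC3 was 75.9% over the higher genes and 41.7% over the lower ones, against 60.4% over all 7676. By GC of the 3′ UTR the medians were -0.83, -0.49, -0.08, 0.32 and 0.48. Without control replicate 3 these were -0.555, -0.36, -0.01, 0.23 and 0.30. Spearman's rho of the log2 difference was 0.57 with GC3 (7676 genes) and 0.64 with 3′ UTR GC (7476 genes). It was 0.51 and 0.575 without control replicate 3. The 2 shares correlated with each other at 0.75. Genes share their libraries here and are not replicates.

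Control replicate 3 had the steepest slope of all 6 libraries. Relative to the mean of the 6, its median deviation was 0.66 in the lowest GC3 bin and -0.63 in the highest. The other 2 control libraries were at 0.20 and 0.22 in the lowest bin and at -0.05 and -0.00 in the highest, while the ZC3H7B-OE libraries were at -0.34, -0.31 and -0.38 in the lowest and at 0.24, 0.20 and 0.28 in the highest. The 2 lines did not overlap in either bin, with or without that library. Without it the median log2 differences over the GC3 bins were -0.54, -0.27, 0.04, 0.21 and 0.27. In the libraries of the later times the bins had medians of -0.25, -0.14, 0.04, 0.12 and 0.13 at 2 h. They were -0.35, -0.17, 0.08, 0.25 and 0.33 at 4 h, and at 6 h -0.27, -0.12, 0.08, 0.24 and 0.32. The slope thus had the same sign at all 4 times, and the outer bins lay farthest apart at 0 h, with and without control replicate 3.

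**Figure D2:**
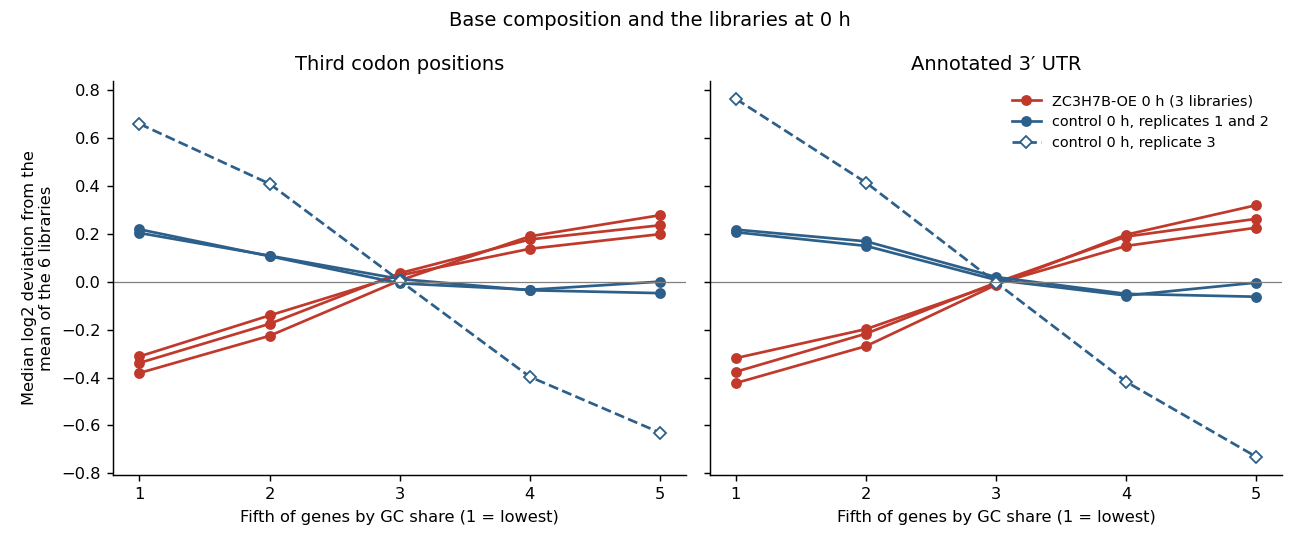
Median log2 deviation of each 0 h library from the mean of the 6 libraries, for 5 equal bins of genes ordered by the GC share of the third base of codons (left) and of the annotated 3′ UTR (right). The 3 ZC3H7B-OE libraries (red) rise with GC, and the control libraries (blue) fall with it, most of all control replicate 3 (dashed), which lies at 0.66 in the lowest GC3 bin and at -0.63 in the highest.

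Codon by codon the same division appeared. Of the 31 sense codons that end in G or C, 29 had a positive rank correlation between their share in a gene and its log2 difference, and the other 2, AUG and UUG, a negative one. Of the 30 that end in A or U, 29 had a negative correlation and the remaining one, CGU, stood at 0.00. The extremes were CCC for proline at 0.50 and AUU for isoleucine at -0.49 (7676 genes each). Without control replicate 3 they were at 0.43 and -0.44. With 3′ UTR GC corrected for as well they were at 0.138 and -0.146, and no codon exceeded 0.146 in size. GC3 and 3′ UTR GC run together, so that correction also removes part of any trend with codons. Where 3′ UTR GC was held within its lowest bin, the median log2 difference was -0.91 in the lowest GC3 bin (866 genes) and -0.38 in the next to highest (50 genes), but -0.53 in the highest (23 genes). Without control replicate 3 these 3 medians were -0.61, -0.21 and -0.46. Where GC3 was held within its lowest bin, it was -0.91 in the lowest 3′ UTR bin and -0.31 in the middle one (148 genes). Without control replicate 3 these were -0.61 and -0.23. Within the middle 3′ UTR bin the median ran from -0.31 in the lowest GC3 bin to 0.12 in the highest (145 genes). Within the middle GC3 bin it ran from -0.60 in the lowest 3′ UTR bin (155 genes) to 0.34 in the highest (137 genes). Without control replicate 3 these ranges were -0.23 to 0.08 and -0.35 to 0.27. Coding length ran weakly with the difference (rho 0.30, and 0.15 without control replicate 3).

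A fit that removes each library's smooth trend with 3′ UTR GC sets these bins near 0 by construction, so it shows which genes differed from others of like composition. With all 6 libraries it called 45 genes higher and 130 lower (0.551% and 1.59%, together 2.14%), among them 22 of the 117 and 123 of the 674. With that library left out it called 692 higher and 771 lower (8.09% and 9.01%, together 17.1%), among them 107 of the 117 and 478 of the 674. LCP1 kept a log2 difference of 4.89 in that fit, ZNF502 -6.73, LIPH -3.94 and COLGALT1 0.67, with edgeR adjusted p of 4.76e-64, 1.77e-16, 6.87e-28 and 1.82e-10. ZC3H7B was at 0.03 there (edgeR adjusted p = 0.881), where it had been at 0.32 without the correction.

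Counts of calls in gene lists stand against 8.25% of all entries lower and 1.43% higher with all 6 libraries, and 16.1% lower and 11.4% higher without control replicate 3. With all 6 libraries and no correction for composition, the called genes of stress programs were lower in ZC3H7B-OE. The integrated stress response is the program in which eIF2 phosphorylation favours translation of ATF4, which then turns on amino acid synthesis and transport. Of 31 of its genes tested, 8 were lower and 0 higher, with a list median of -0.45. TRIB3, a pseudokinase that feeds back on ATF4, had 240, 217 and 299 CPM in ZC3H7B-OE, against 584, 506 and 593 CPM in control, a log2 difference of -1.16 (SE 0.20, edgeR adjusted p = 0.0137). XPOT, the nuclear exporter of tRNA, had 147, 145 and 132 CPM in ZC3H7B-OE, against 304, 370 and 346 CPM in control (log2 difference -1.27, SE 0.18, edgeR adjusted p = 0.0112). PSAT1, an enzyme of serine synthesis, had 159, 205 and 165 CPM in ZC3H7B-OE, against 439, 413 and 849 CPM in control (log2 difference -1.68, SE 0.30, edgeR adjusted p = 0.0148). It was at -1.27 without control replicate 3, its highest control library. None of the 3 overlapped between the lines, and all were lower at each later time.

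The remaining 5 called genes of the list, named after their values were seen, were ATF3, MTHFD2, SLC7A11, SLC38A2 and CTH, between -0.75 and -1.51. ATF4 mRNA itself was at 49.6, 47.1 and 31.7 CPM in ZC3H7B-OE and at 43.4, 47.4 and 37.7 CPM in control, a log2 difference of -0.00 (edgeR adjusted p = 0.994). Without control replicate 3, 17 of 32 genes of this list were lower and 1 higher. Corrected for 3′ UTR GC, the count was 5 of 31 lower with all 6 libraries (1.59% of all entries), and 17 lower and 1 higher of 32 without control replicate 3 (9.01% and 8.09%). At 2, 4 and 6 h, 11 of 32, 17 of 32 and 20 of 31 were lower, and 0, 2 and 2 higher. GC3 is 70.9% in TRIB3, 51.1% in PSAT1 and 36.8% in XPOT, against a median of 41.7% over the genes that were lower. With that correction and all 6 libraries TRIB3 was at -1.64, PSAT1 at -1.04 and XPOT at -0.72, with edgeR adjusted p of 0.0268, 0.0481 and 0.0634.

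Of 20 p53 targets tested, 4 were lower and 0 higher (median -0.37): RRM2B (a ribonucleotide reductase subunit), CCNG1 (cyclin G1), SESN1 (a sestrin) and, named after its value was seen, CDKN1A (the cell cycle inhibitor p21), with log2 differences of -1.62, -1.74, -1.26 and -0.93. The count was 7 of 20 without control replicate 3. Corrected for 3′ UTR GC, 1 of 20 was lower with all 6 libraries and 5 of 20 without control replicate 3 (1.59% and 9.01% of all entries). Of 13 genes of the NRF2 antioxidant response, 4 were lower and 0 higher. ME1 (malic enzyme), GSR (glutathione reductase) and GCLM (glutamate-cysteine ligase) had log2 differences of -1.56, -0.94 and -1.52, and SLC7A11 is shared with the integrated stress response. The NRF2 median was -0.42 with all libraries and -0.01 without control replicate 3, where 2 were higher and 4 lower. With 3′ UTR GC corrected for, 0 of 13 were called with all 6 libraries. That correction without control replicate 3 gave 1 higher and 3 lower. At 2, 4 and 6 h, 0 of 12, 5 of 13 and 6 of 13 were higher, and 2, 3 and 3 lower. Of 18 immediate early transcription factor genes EGR1, named after its value was seen, was the 1 called (log2 difference -1.22), and 5 were lower and 0 higher without control replicate 3.

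Of 19 genes for HSP70, HSP90, HSP110 and J-domain chaperones, 5 were lower and 0 higher, among them CHORDC1 (an HSP90 partner), DNAJA1 (an HSP70 co-chaperone) and HSPH1 (HSP110), at -1.84, -1.23 and -0.94. CHORDC1 had 20.2, 22.6 and 25.6 CPM in ZC3H7B-OE, against 66.3, 59.1 and 121 CPM in control, with no overlap. It was at -1.46 without control replicate 3, its highest control library. With the correction for 3′ UTR GC and without control replicate 3 the chaperone list split into 4 higher and 3 lower of 21, against 1 higher and 9 lower without the correction. The correction with all 6 libraries left 0 of 19 called. Of 18 endoplasmic reticulum chaperone and unfolded protein response genes, 4 were lower and 0 higher, with ERO1LB (an oxidase for protein disulfides), DNAJC3 (an inhibitor of eIF2 kinases) and SEL1L (of the degradation channel) at -2.01, -0.95 and -0.88. The list median was -0.03, or 0.10 without control replicate 3, where 3 genes were higher and 6 lower. The median of all entries was -0.04 with all 6 libraries. The correction for 3′ UTR GC left 0 of these 18 called with all 6 libraries, and 2 higher and 3 lower without control replicate 3.

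The replication and mitosis lists had 3 genes lower each, where 8.25% of all entries were lower. Of 34 DNA replication and S phase genes, 3 were lower and 0 higher, among them RRM2 (the ribonucleotide reductase subunit of S phase) and CCNE2 (cyclin E2), at -1.26 and -1.42. CCNE2 was highest in control replicate 3, and was at -0.87 without it and at -0.30 with the correction for 3′ UTR GC as well (edgeR adjusted p = 0.231). RRM2 had 80.8, 112 and 90.7 CPM in ZC3H7B-OE, against 202, 225 and 253 CPM in control. Of 24 mitosis genes, 3 were lower and 0 higher, namely HMMR (a spindle protein), CDK1 (the mitotic kinase) and MAD2L1 (of the spindle checkpoint). Each of these 3 was far higher in control replicate 3 than in the other control libraries. MAD2L1, for one, had 143, 173 and 127 CPM in ZC3H7B-OE, against 302, 351 and 1099 CPM in control. Without that library HMMR, CDK1 and MAD2L1 still passed, at -1.45, -1.39 and -1.14, where they were at -2.04, -2.17 and -1.98 with it.

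Ribosomal protein and respiratory complex genes moved most, of the 30 lists with at least 10 genes tested, when that library was left out. Of 62 cytosolic ribosomal protein genes 1 was lower (RPL7, named after its value was seen) and 0 higher, yet their median was -0.71 with all 6 libraries and -0.16 without control replicate 3. Respiratory complexes II to V had a median of -0.78 with it and -0.16 without, complex I -0.68 with it and -0.11 without, and the proteasome -0.54 and -0.16. At 2, 4 and 6 h the ribosomal protein median was 0.20, 0.46 and 0.06. Of 35 translation initiation and elongation factor genes, 4 were lower and 0 higher. EIF1AX, which encodes the scanning factor eIF1A, had 244, 236 and 225 CPM in ZC3H7B-OE, against 646, 640 and 1380 CPM in control, with no overlap and a log2 difference of -1.92 (SE 0.31, edgeR adjusted p = 0.0129). It was at -1.45 without control replicate 3. ETF1 (the release factor eRF1) and EIF4EBP2 (a repressor of eIF4E) were at -0.87 and -0.75.

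Of 23 genes of cholesterol and fatty acid synthesis, 3 were lower and 0 higher: CYP51A1 and SC5D, enzymes of the sterol pathway, at -1.48 and -1.81, and STARD4, a sterol carrier, at -1.74, or -1.10 without control replicate 3. Of 36 genes for SR proteins and hnRNPs, which bind pre-mRNA, 3 were lower and 0 higher, namely SRSF10, HNRNPK and HNRNPDL at -1.26, -0.83 and -0.77, a share near that of all entries (8.25%). This list turned with composition: without control replicate 3 it had 3 higher and 11 lower, and 11 higher and 5 lower once 3′ UTR GC was corrected for as well. Among 14 Hippo-YAP genes, AJUBA and WWTR1 (the co-activator TAZ) were lower, at -1.41 and -1.35, and AMOT higher. Among 14 extracellular matrix and adhesion genes, SPARC and ITGB1 (integrin beta 1) were lower, at -2.80 and -0.77, and COL18A1 (a basement membrane collagen) was higher, at 1.11.

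HOX genes are the clustered transcription factor genes of body position, and those called were higher in ZC3H7B-OE. HOXB7 had 122, 92.7 and 104 CPM in ZC3H7B-OE, against 55.3, 55.4 and 63.6 CPM in control. HOXB13 had 109, 96.0 and 92.4 CPM in ZC3H7B-OE, against 60.1, 45.3 and 39.3 CPM in control. These 2, named after their values were seen, were the called genes of 33 tested (1.43% of all entries were higher), with log2 differences of 0.87 (SE 0.21, edgeR adjusted p = 0.0329) and 1.03 (SE 0.23, edgeR adjusted p = 0.0271). Without control replicate 3, 11 of 33 were higher and 0 lower (11.4% of all entries were higher), and 10 higher and 0 lower with 3′ UTR GC corrected for as well (8.09%). At 2, 4 and 6 h, 5, 13 and 16 of 33 were higher and 0, 1 and 2 lower. The HOX median was 0.34 with all 6 libraries and 0.28 without control replicate 3.

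**Figure D3:**
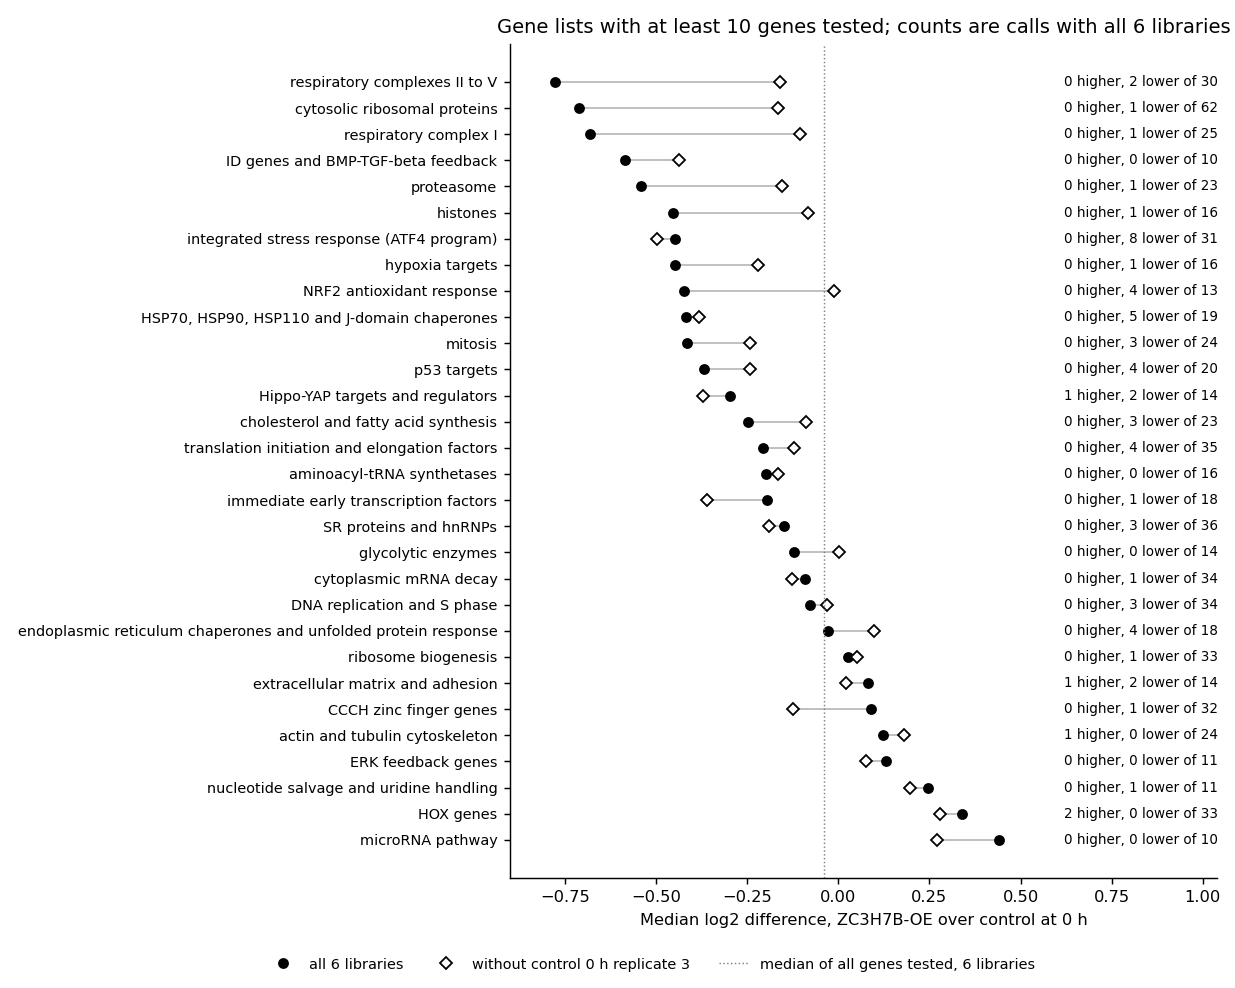
Median log2 difference (ZC3H7B-OE over control) of the 30 gene lists with at least 10 genes tested, with all 6 libraries (filled points) and without control replicate 3 (open diamonds); the dotted line is the median of all entries tested, -0.04, and the text at the right counts calls with all 6 libraries. Ribosomal proteins and respiratory complexes move most when control replicate 3 is left out, while the integrated stress response stays at -0.45 and -0.50.

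The genes called at 0 h mostly differed in the same direction later, in libraries that share no sample with those of 0 h. Of the 117 higher genes, 113 of 117 tested at 2 h, 112 of 116 at 4 h and 111 of 114 at 6 h had the same sign, and 51, 84 and 85 were called higher (4.68%, 16% and 17.3% of all entries were, and 14.9%, 34.1% and 35.5% were called in either direction). Of the 674 lower genes, 648 of 672, 662 of 674 and 647 of 672 had the same sign, and 451, 546 and 541 were called lower (10.2%, 18.2% and 18.2% of all entries were). All entries tested had a positive sign in 51.3%, 50.2% and 53.4%. In all, 43 of the 117 and 365 of the 674 were called in the same direction at all 4 times. A single gene of the 117, SDK2, was called in the opposite direction, at 2 h.

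**Figure D4:**
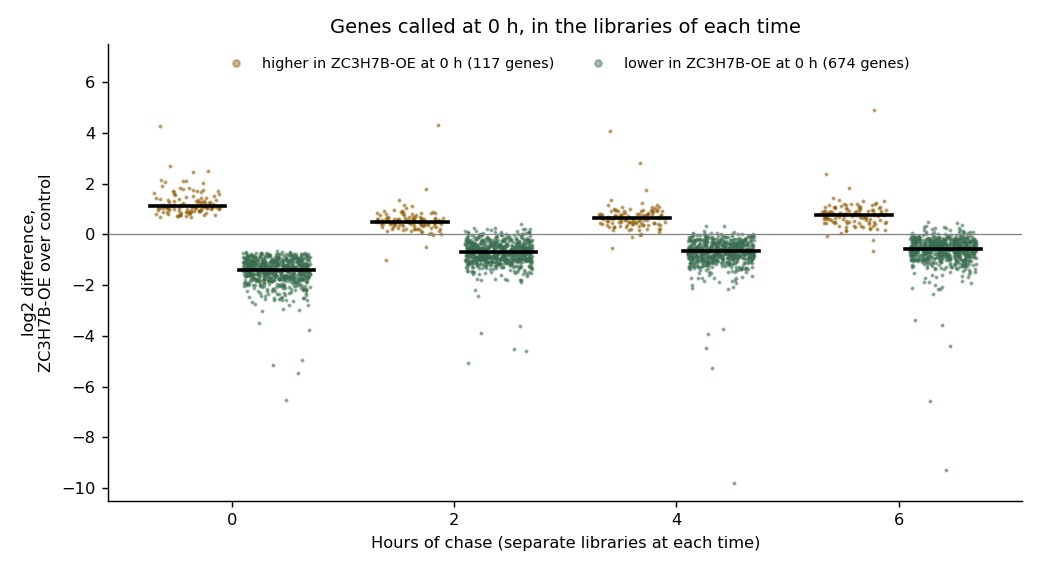
Log2 difference (ZC3H7B-OE over control) at 0, 2, 4 and 6 h of the 117 genes called higher and the 674 called lower at 0 h, each point a gene and each bar a median; the libraries of each time are separate. The medians of the higher genes are 1.11, 0.50, 0.65 and 0.75 and those of the lower genes -1.39, -0.72, -0.67 and -0.57. Without control replicate 3 the 0 h medians are 0.94 and -1.16. The genes were chosen by their test at 0 h, which favours large values there. The step from 0 h to the later times is therefore no measure of a decline. The lowest point at 4 h and 6 h is TENM1, whose fitted value rests on 0 reads in ZC3H7B-OE and is no measure of size.

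Some differences at 0 h departed in size or sign from those of the later times. A fit of all 24 libraries tested whether the line difference at 0 h departed from its mean at 2, 4 and 6 h, and called 484 of 10038 entries, 56 with a higher difference at 0 h and 428 with a lower one (0.558% and 4.26%, together 4.82%). Leaving out control replicate 3, it called 17 and 179, and 188 of the 484 were among them. NLRP9, a gene of the NLR family of innate sensors, had 24.8, 8.94 and 29.5 CPM in ZC3H7B-OE, against 1.91, 3.20 and 5.02 CPM in control at 0 h. None of its reads was labelled in any library at 0 h. The lines did not overlap there, but the log2 difference was 2.69 at 0 h and 0.57, -0.03 and 0.17 at 2, 4 and 6 h. SLC46A3, a lysosomal transporter gene, had 0.577, 0.471 and 1.11 CPM in ZC3H7B-OE, against 11.0, 7.46 and 7.53 CPM in control at 0 h. It too did not overlap at 0 h (log2 difference -3.50), and was at -0.28, -1.72 and 0.25 at 2, 4 and 6 h. SDK2, a cell adhesion gene, had a log2 difference of 1.27 at 0 h and -0.99 at 2 h, both called. Of genes named above, EIF1AX, CDK1, CYP51A1, DNAJC3 and AMN1 had a lower difference at 0 h than later, by -1.11, -1.83, -0.97, -0.66 and -5.17, and passed again without control replicate 3, by -0.59, -1.01, -0.71, -0.56 and -4.22. RASGRP4 had a higher one, by 2.51 with all libraries and 2.63 without control replicate 3. The fit of all 24 libraries was not corrected for composition, and the GC3 bins lay farthest apart at 0 h. GC3 is 34.0%, 34.7%, 40.9%, 34.5% and 36.4% in EIF1AX, CDK1, CYP51A1, DNAJC3 and AMN1, all within the lowest bin. The part of composition in these departures was not tested. Not all of these genes differed at 0 h alone. EIF1AX was also called lower at 2, 4 and 6 h, with log2 differences of -0.81, -0.78 and -0.88. CYP51A1 was called lower at 2 h and 4 h too, CDK1 at 6 h and DNAJC3 at 4 h.

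Labelled reads, those with T>C conversions, made up 75.1%, 74.9% and 74.3% of reads in ZC3H7B-OE, against 78.0%, 77.4% and 74.8% in control. Control replicate 3 lay within the range of ZC3H7B-OE. The means were 74.8% ± 0.420 in ZC3H7B-OE and 76.7% ± 1.67 in control (SD, n = 3 each), a difference of -1.95 points (two-sided exact permutation test, p = 0.300, where 3 against 3 libraries cannot go below 0.1). It was -2.90 points without control replicate 3.

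For single genes the labelled share differed in 34 of 7418 entries, 1 higher and 33 lower in ZC3H7B-OE (0.0135% and 0.445%, together 0.458%). The higher one, ADAMTS4, named after its values were seen, rested on 7 labelled and 37 unlabelled reads in all. ZC3H7B itself was among them. Its labelled share was 62.2%, 63.0% and 66.1% in ZC3H7B-OE, against 76.1%, 77.6% and 90.9% in control, and the lines did not overlap (log2 odds ratio -1.19, SE 0.22, edgeR adjusted p = 0.00573). TRIM13, a ubiquitin ligase gene, had 55.6%, 65.2% and 40.0% labelled reads in ZC3H7B-OE, against 89.3%, 91.7% and 90.6% in control, while its level in all reads did not pass the test (log2 difference 0.06, edgeR adjusted p = 0.906). Its log2 odds ratio was -3.04 (SE 0.64, edgeR adjusted p = 0.0124), the lowest among genes with at least 50 reads of each kind.

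HINT3 (a HIT-family hydrolase), KPNA3 (an importin alpha), SCOC (a coiled-coil protein of autophagy) and B3GAT2 followed, at -1.85, -1.83, -1.75 and -1.68, each with all ZC3H7B-OE libraries below all control libraries. Without control replicate 3, SCOC and B3GAT2 passed again and HINT3 and KPNA3 did not, at -1.77 and -1.72 (edgeR adjusted p = 0.0700 and 0.0755). B3GAT2, a glucuronosyltransferase gene, was labelled little in either line, with 5.39%, 3.10% and 3.77% in ZC3H7B-OE and 9.54%, 13.7% and 13.2% in control. NUCKS1 and GLO1, lower in all reads, were lower in labelled share too, at -0.50 and -0.57. FAM175A, named after its values were seen, had 0 labelled reads of 29, 38 and 40 in ZC3H7B-OE and labelled shares of 21.4%, 18.4% and 14.6% in control. These directions are relative to a common scaling of labelled and unlabelled reads: when the 2 kinds were scaled separately, 19 genes were higher and 3 lower. The median log2 odds ratio over all entries tested was -0.17 with the common scaling and 0.16 with separate scaling. The direction of the calls thus turned with that of the median.

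**Figure D5:**
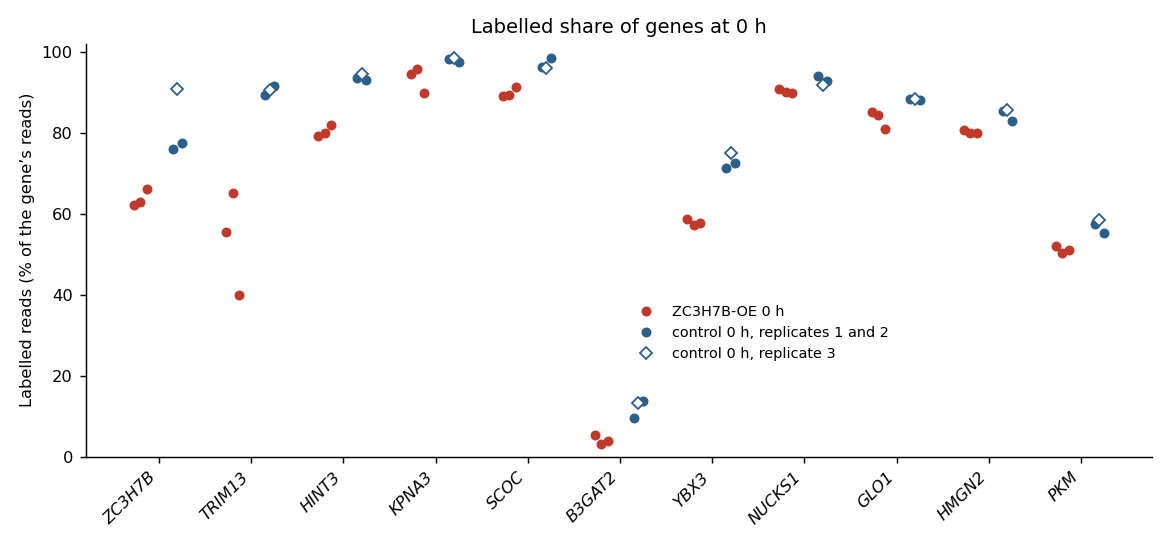
Labelled reads as a percentage of a gene's reads in each 0 h library, for genes whose labelled share differed; red points are ZC3H7B-OE, blue points control replicates 1 and 2, and the open diamond control replicate 3. ZC3H7B lies at 62.2% to 66.1% in ZC3H7B-OE and at 76.1% to 90.9% in control, and TRIM13 at 40.0% to 65.2% in ZC3H7B-OE and at 89.3% to 91.7% in control.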

How the data were processed

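Per the labels, HEK293 cells of 2 lines were pulsed with s4U, chased with uridine and sequenced as poly(A) RNA. The authors deposited tables of raw read counts per gene, 1 of all reads and 1 of labelled reads with T>C conversions, with 3 libraries per line and time. Per the submitters' processing notes fastp and GRCh37 were used, with versions not given. The counter and its treatment of strand are not stated in these sources, so overlapping genes and close paralogs (RPL7 and other ribosomal proteins among them) are uncertain. Of 19692 entries, 450 name several genes and hold 3.27% to 3.69% of the reads at 0 h. Depth at 0 h was 1502068 to 2053311 reads.

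Counts of the 6 libraries at 0 h were filtered with filterByExpr (minimum count 10), scaled by TMM and tested with edgeR 4.0.16 (quasi-likelihood, Benjamini-Hochberg adjusted p under 0.05) in R 4.3.3. The fits at 2, 4 and 6 h used the same steps on their own 6 libraries. The labelled share per gene was tested as the interaction of line and read kind, with library as a block, and the difference between times in a fit of all 24 libraries. Alternatives were DESeq2 1.42.0, limma 3.58.1 (voom with sample weights), other scalings and filters, each replicate left out, a replicate block, and offsets for GC3 and 3′ UTR GC (lowess, span 0.4, chosen after seeing the data). Coding sequences and 3′ UTRs came from GENCODE 29 (GRCh38), matched by gene identifier, with no coordinates used. The fits were tested on simulated data. There the main fit recovered 29.6% of 2-fold and 98.9% of 4-fold changes, with 5 false calls among 127. A gene that did not pass may thus still differ 2-fold. The simulation gave all genes and libraries 1 common dispersion and set no library apart, unlike these data. Tables were read with Python 3.11.15 and pandas 2.3.3, and permutation tests used scipy 1.17.1.

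The comparison and its 39 gene lists were chosen with earlier results of these data known. Genes were named by rule: both ZC3H7 paralogs, the 10 highest and the 10 lowest called differences (mean log2 CPM 1 or more, no overlap between lines), the 5 most abundant called genes in each direction, the 3 called genes of smallest adjusted p in any list holding at least 3, the 5 highest and 5 lowest differences between times (mean log2 CPM at least 3), and the labelled shares that differed most, 5 in each direction, with at least 50 reads of each kind. Replicate numbers gave no sign of pairing the libraries, in a check that cannot exclude it, and the main fit used no pairing. Some items that the rule names are not reported here.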

Additional observations from a re-analysis of the deposited data

Results flagged for a closer look

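In 10 genes the difference between the lines at 0 h departed from its mean at 2, 4 and 6 h, by a test of that difference in all 24 libraries (edgeR, Benjamini-Hochberg adjusted p under 0.05). They are the 5 highest and 5 lowest called among those whose log2 CPM averaged 3 or more over the 24 libraries. That test had no correction for base composition. The difference of the log2 differences was 2.47 in NLRP9, 2.12 in COL4A4, 1.81 in ATP1B2, 1.72 in SDK2 and 1.66 in GAS7, with edgeR adjusted p of 0.0185, 0.0185, 0.0125, 0.00586 and 0.0102. All 5 passed again without control replicate 3, at 2.82, 2.19, 1.43, 1.505 and 1.38. GAS7, a growth arrest gene, had a log2 difference of 0.85 at 0 h (edgeR adjusted p = 0.186) and -1.10, -0.62 and -0.73 at 2, 4 and 6 h. ATP1B2, a subunit of the sodium pump, was at 1.90 at 0 h (edgeR adjusted p = 0.0538) and at 0.35, 0.02 and -0.12 later.

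The difference was -2.95 in SLC46A3, -2.45 in BET1, -2.41 in COMMD8, -2.28 in CACNB4 and -2.08 in PPIL3, with edgeR adjusted p of 0.0122, 0.0305, 0.0359, 0.0202 and 0.0213. Without control replicate 3 only SLC46A3 of these 5 passed, at -3.003 (edgeR adjusted p = 0.0109). BET1, COMMD8, CACNB4 and PPIL3 were then at -2.22, -1.30, -1.72 and -1.14, with edgeR adjusted p of 0.0796, 0.0512, 0.0912 and 0.152. In COMMD8 control replicate 3 was at 188 CPM, against 45.8 and 40.5 CPM in control replicates 1 and 2.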

How the results depend on the processing

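The counts of calls differed widely between alternatives. Every one of the 117 higher and 674 lower genes was called in the same direction without control replicate 3 and in the fit of all 24 libraries. Both fits reuse libraries of 0 h and called far more entries, so this is no independent support. The fit of all 24 libraries also shares its spread with the later times, which would understate the spread at 0 h. Against 791 calls, 117 higher and 674 lower, the DESeq2 test gave 1483 (441 and 1042), limma-voom with sample weights 2454 (979 and 1475), the fit of all 24 libraries 3132 (1170 and 1962) and that fit less control replicate 3 gave 2130 (769 and 1361). Testing with no filter on low counts gave 295 higher and 855 lower. The GC3 offset gave 245 (45 and 200), the 3′ UTR GC offset 175 (45 and 130), and that offset less control replicate 3 gave 1463, 692 of them higher. Leaving out 1 replicate each gave 0 to 2356 calls, 0 to 974 higher and 0 to 1382 lower. The 0 came with any ZC3H7B-OE replicate left out, where the smallest edgeR adjusted p was 0.0659 to 0.0971. Without control replicate 1 there were 55 higher and 558 lower, and 134 and 612 without control replicate 2. ZC3H7B passed at 0.36 with limma-voom, 0.56 with all 24 libraries and 0.33 with those but control replicate 3, and lay between 0.32 and 0.75 with 1 replicate left out. ZC3H7A passed at -0.65, -0.58 and -0.69 in those 3 fits, was at 0.12 with the GC3 offset (edgeR adjusted p = 0.857), and between -0.76 and -0.35 with 1 replicate left out. TRIM13 in all reads, not called at 0.06, was at -0.043 with limma-voom, -0.045 with all 24 libraries but control replicate 3, -0.05 with the 3′ UTR GC offset without that library, and between -0.12 and 0.30 with 1 replicate left out. Genes with a different labelled share numbered 21 at a minimum count of 30, 22 with the 2 kinds of read scaled separately, and 16 to 50 with 1 replicate left out. The difference in a library's labelled share lay between -2.90 and -1.33 points. Differences between times numbered 196 without control replicate 3. The cause of these changes was not tested. Under a replicate block edgeR called 0 genes, 0 higher and 0 lower (2091 at an unadjusted p under 0.05, smallest adjusted p 0.0556). Same-numbered libraries of the 2 lines deviated together at r = 0.07, -0.18 and -0.18, which gave no sign of pairing. With few libraries per line and control replicate 3 apart from the others, this check cannot exclude pairing. At 1502068 to 2053311 reads a library, genes too low for the minimum count of 10 were not tested.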
